A study of Mus musculus with 145 samples.

Results

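The 724 cells described here were all cells in the clean UMI table of spermatogonial stem cell (SSC) reprogramming with 5C, out of 5553 cells in the clean tables of the series. They were followed by the day written in the cell name, day 12, day 14 or day 16, and were kept in 2 states. Cells with a *Dazl* level of at least 400 counts per 1000000 UMIs (CPM) are called *Dazl*-high cells (566), and cells with *Dazl* below 400 CPM and *L1td1* of at least 100 CPM are called *Dazl*-low *L1td1*-high cells (147). The remaining 11 cells met neither condition and were left out. *Dazl* and *L1td1* therefore chose the cells, and their levels and the differences in level between the states are given as descriptions without a test. Raw UMIs were summed over the cells of a state within a sample and day, each sum held at least 5 cells, and the sample was the replicate. The DMSO cells of the series carry other days in their names and were not used here.

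The RNA was measured by the RNA arm of scTrio-seq2, which reads the transcriptome and the DNA methylome of the same cell. All 8 samples came from one kind of culture, SSCs from postnatal B6D2F1 males. These were bred from C57BL/6 females that carried an *Oct4*-EGFP or EGFP transgene and DBA/2 males. Which transgene a sample carried is not given by sample or day. The cells grew on mitomycin C-inactivated embryonic fibroblast feeders in SSC medium with EGF, bFGF, GDNF and ESGRO, together with 5C, a mixture of SGC707, vitamin C, EGCG, Daphnetin and TUDCA. SSC-like and pluripotent-like colonies were selected and cells were picked with a mouth pipette, so the shares of cells below are those of the collected cells and not of the culture. Day 12 was covered by 4 samples (replicates 1, 2, 4 and 7), day 14 by 2 (replicates 3 and 5) and day 16 by 2 (replicates 6 and 8). The GEO labels give the treatment but not the day, and they do not say whether the samples were separate cultures, so the p-values measure only the spread between these samples.

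SSCs are the unipotent stem cells of the testis, and *Dazl*, which encodes an RNA-binding protein of germ cells, marks them. In some cultures SSCs give rise to colonies that resemble embryonic stem cells and express *Nanog*, *Sox2* and *L1td1*, an RNA-binding protein gene of pluripotent cells. Primordial germ cells, the embryonic precursors of SSCs, express *Prdm14*, *Dppa3* and *Tfap2c*, whereas *Otx2* and *Fgf15* are genes of the epiblast. The study names these genes as markers of successive stages and stained PRDM14 and OTX2 in colonies over the days, and the question here is which of them differed between day 12 and day 16 within a state.

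The share of *Dazl*-low *L1td1*-high cells did not order the samples by day. On day 12 they made up 26 of 93 cells of replicate 1 (28%, exact binomial 95% interval 19.1 to 38.2) and 38 of 92 cells of replicate 7 (41.3%, 31.1 to 52.1), but 0 of 91 and 0 of 92 cells of replicates 2 and 4, which allows a share of up to 3.97% and 3.93%. On day 14 they made up 6 of 89 cells of replicate 3 (6.74%, 2.51 to 14.1) and 54 of 91 cells of replicate 5 (59.3%, 48.5 to 69.5). On day 16 the shares were 8 of 85 cells of replicate 6 (9.41%, 4.15 to 17.7) and 15 of 91 cells of replicate 8 (16.5%, 9.53 to 25.7). Samples of day 12 and of day 14 thus lay on either side of both day 16 samples. The intervals cover counting error only, and how colonies were picked is part of each share.

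In replicate 7 the libraries were split by state. Each library name carries a middle number whose meaning is not given, and replicate 7 was built from 2 libraries of 46 cells each. The library numbered 1.8 held all 38 *Dazl*-low *L1td1*-high cells of that replicate, and the library numbered 2 held 45 of its 51 *Dazl*-high cells. Replicates 2 and 4 were built from libraries numbered 2 and 3, replicates 5 and 6 from libraries numbered 1.6, and replicates 1, 3 and 8 from libraries numbered 1. The number, and what it stands for, cannot be told apart from the states in replicate 7. Libraries numbered 2 and 3 occurred on day 12 only and held no *Dazl*-low *L1td1*-high cells. All *Dazl*-high cells of replicates 2 and 4 and most of those of replicate 7 came from them. For most *Dazl*-high cells of day 12, day and number thus cannot be told apart. The same holds for the number and the shares of the states on day 12.

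**Figure D1:**
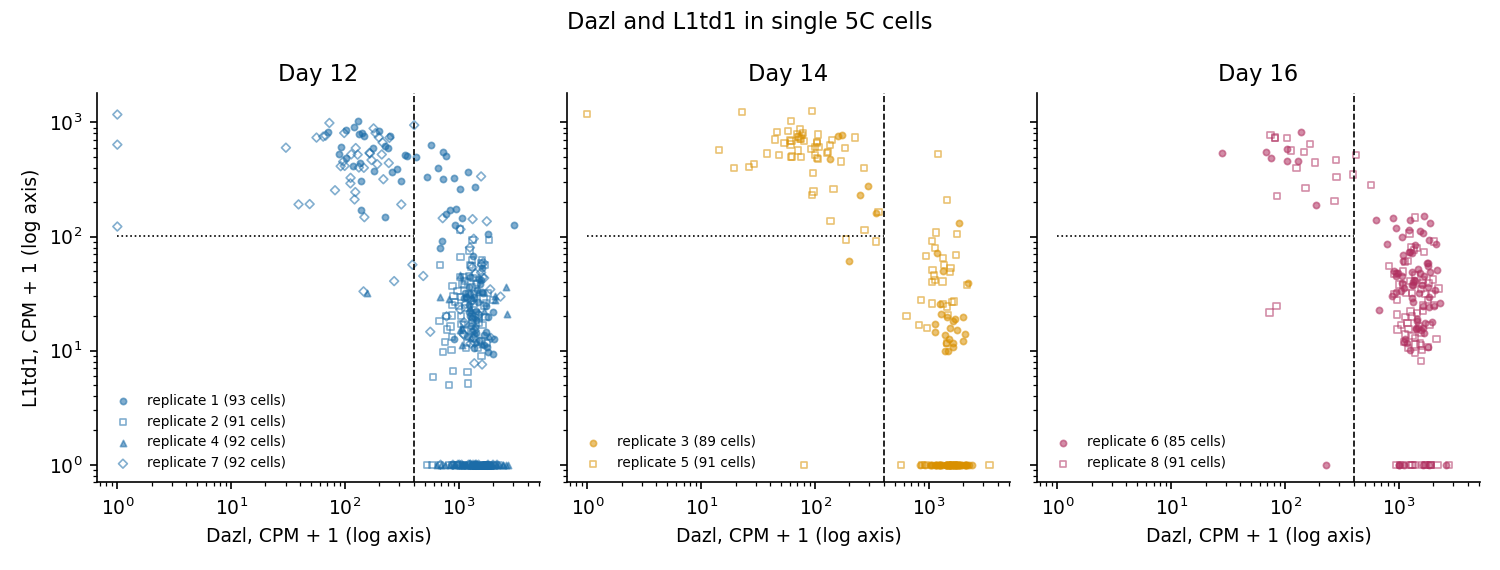
*Dazl* (x axis, CPM + 1, log scale) against *L1td1* (y axis, CPM + 1, log scale) in each of the 724 cells, with 1 panel per day and 1 symbol per replicate. The dashed line marks 400 CPM of *Dazl* and the dotted line 100 CPM of *L1td1*, and 13 cells had a *Dazl* level between 300 and 500 CPM.

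Cells near the limits were few. The 3 *Dazl*-high cells nearest to 400 CPM had 404, 417 and 417 CPM of *Dazl*, and the 3 nearest cells outside had 396, 389 and 360 CPM. For *L1td1*, the *Dazl*-low cells just inside 100 CPM had 114, 121 and 135 CPM and those just outside had 93.4, 89.3 and 59.8 CPM. The labels of the states held for other markers: *Ddx4*, a germ cell helicase gene, had 235 to 308 CPM in the sums of *Dazl*-high cells and 26.2 to 53.1 CPM in those of *Dazl*-low *L1td1*-high cells, and *Dmrt1* had 204 to 357 and 14.5 to 44.1 CPM. *Nanog* ran the other way, with 1.06 to 78.7 CPM in *Dazl*-high and 226 to 269 CPM in *Dazl*-low *L1td1*-high sums.

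Sums held 2187261 to 10723044 UMIs in *Dazl*-high cells and 492225 to 5092257 UMIs in *Dazl*-low *L1td1*-high cells, so 3 UMIs were worth 0.26 to 1.4 CPM and 0.609 to 6.15 CPM. No cell appeared more than once, and 94 of the 96 well barcodes were used in more than 1 sample, as each library reused the same set. Fibroblast and feeder markers summed to 133 to 374 CPM in *Dazl*-high and 574 to 962 CPM in *Dazl*-low *L1td1*-high sums, mostly *Fn1* and *Sparc*, while *Col3a1* and *Lum* were at 0 in all sums of *Dazl*-low *L1td1*-high cells. Blood and endothelial markers summed to 13.3 to 45.4 and 15.4 to 62.0 CPM, and *Ptprc* and *Cdh5* were at 0 in all sums of *Dazl*-low *L1td1*-high cells. Testis somatic markers summed to 49.0 to 292 and 113 to 408 CPM, with *Vim* the highest in all sums of the second state, and neural markers to 77.2 to 161 and 28.7 to 88.6 CPM.

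In *Dazl*-low *L1td1*-high cells *Nanog*, *Sox2* and *L1td1* had similar levels on all 3 days, and other pluripotency genes varied more. *L1td1* had 583 and 492 CPM on day 12 (replicates 1 and 7), 470 and 635 CPM on day 14 (replicates 3 and 5) and 540 and 524 CPM on day 16 (replicates 6 and 8). *Nanog*, a homeobox gene of pluripotent cells, had 243 and 261, 226 and 237, and 244 and 269 CPM in the same order. *Sox2* had 607 and 708 CPM on day 12, 541 and 544 CPM on day 14 and 582 and 527 CPM on day 16. The log2 fold change of day 16 against day 12 was 0.03 for *Nanog* (95% interval -0.47 to 0.52) and -0.24 for *Sox2* (-0.63 to 0.14). Any change of *Nanog* by more than 0.52 on the log2 scale in either direction lay outside this interval. *Utf1*, a chromatin factor of pluripotent cells, had 812 and 715 CPM on day 12, 724 and 1001 CPM on day 14 and 1028 and 730 CPM on day 16, and the days overlapped. *Dppa5a*, an RNA-binding protein gene and the most abundant of the core pluripotency list, had 1849 and 1045 CPM on day 12, 2493 and 3422 CPM on day 14 and 1980 and 1366 CPM on day 16. Both of its day 14 sums lay above all others, with a log2 fold change of 1.03 between day 14 and day 12 (SE 0.24, edgeR adjusted p = 0.497). It passed the threshold without replicate 1 (adjusted p = 3.12e-09) but not without replicate 7, 3 or 5. *Klf5*, a zinc finger gene of naive pluripotency, had 253 and 106, 451 and 339, and 228 and 280 CPM.

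The primordial germ cell genes *Dppa3* and *Tfap2c* were lowest on day 14. *Dppa3*, which encodes a protein that guards DNA methylation in the zygote, had 562 and 938 CPM on day 12, 168 and 188 CPM on day 14, and 257 (replicate 6) and 646 CPM (replicate 8) on day 16. *Tfap2c*, a transcription factor gene required for primordial germ cells, had 78.0 and 169 CPM on day 12, 26.7 and 9.54 CPM on day 14, and 57.0 and 115 CPM on day 16. Every day 14 sum of both genes lay under every day 12 and day 16 sum. *Prdm14*, a repressor of somatic genes in the germ line, was low throughout, with 14.4 and 30.8, 14.4 and 9.95, and 19 and 27.7 CPM, and its days overlapped. Between day 16 and day 12 the log2 fold change was -0.73 for *Dppa3* (95% interval -1.45 to -0.01), -0.52 for *Tfap2c* (-1.59 to 0.56) and 0.05 for *Prdm14* (-1.47 to 1.58).

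*Rhox5* and *Bmp4* were higher in both day 14 sums than in both day 12 sums. *Rhox5*, a homeobox gene on the X chromosome, had 59.7 and 25.1 CPM on day 12, 242 and 405 CPM on day 14, and 353 CPM in replicate 6 but 29.5 CPM in replicate 8 on day 16. The day 16 samples thus differed 12-fold, and replicate 8 lay between the day 12 samples. *Bmp4*, a ligand that induces primordial germ cells, had 45.0 and 9.72 CPM on day 12, 111 and 69.8 CPM on day 14 and 140 and 45.5 CPM on day 16, and the lowest day 16 sum lay just over the highest day 12 sum. The log2 fold change of day 16 against day 12 was 2.15 for *Rhox5* (SE 0.73, unadjusted p = 0.0106) and 1.74 for *Bmp4* (SE 0.64, unadjusted p = 0.0167) by edgeR's quasi-likelihood test, and both had a Benjamini-Hochberg adjusted p of 1.0. *Rhox5* passed the threshold with no filter on low counts (2.11, adjusted p = 6.53e-08 by edgeR). Leaving out a sample of day 12 or day 16 left 1 sum on that day. The change of *Rhox5* was then 2.90 without replicate 1, 3.04 without replicate 8 and -0.53 without replicate 6. The change of *Bmp4* was 3.23 without replicate 1. Neither gene passed in the other alternatives run. In sums, fewer cells that express a gene and less RNA per cell cannot be told apart.

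The epiblast markers were unevenly spread over the samples. *Otx2*, a transcription factor gene of the epiblast and the forebrain, had 52.8 and 23.8 CPM on day 12, 24.6 and 77.5 CPM on day 14, and 66.9 CPM in replicate 6 and 2.36 CPM in replicate 8 on day 16, a 28.3-fold range within 1 day. *Fgf15*, a growth factor gene of the epiblast, had 17.9 CPM in replicate 5 (day 14), 2.71 CPM in replicate 6 (day 16), 0.60 CPM in replicate 1 (day 12) and 0 in the other 3 sums. *Eomes*, a T-box gene of the primitive streak, was at 0 in every sum except that of replicate 5 (2.84 CPM). *Fgf15* and *Eomes* were too low for the test, and *Otx2* had a log2 fold change of -0.19 (95% interval -2.15 to 1.77). It became 0.50 without replicate 1, 0.79 without replicate 8 and -4.00 with at least 10 cells per sum. Each of these alternatives left 1 sum on day 12 or day 16.

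**Figure D2:**
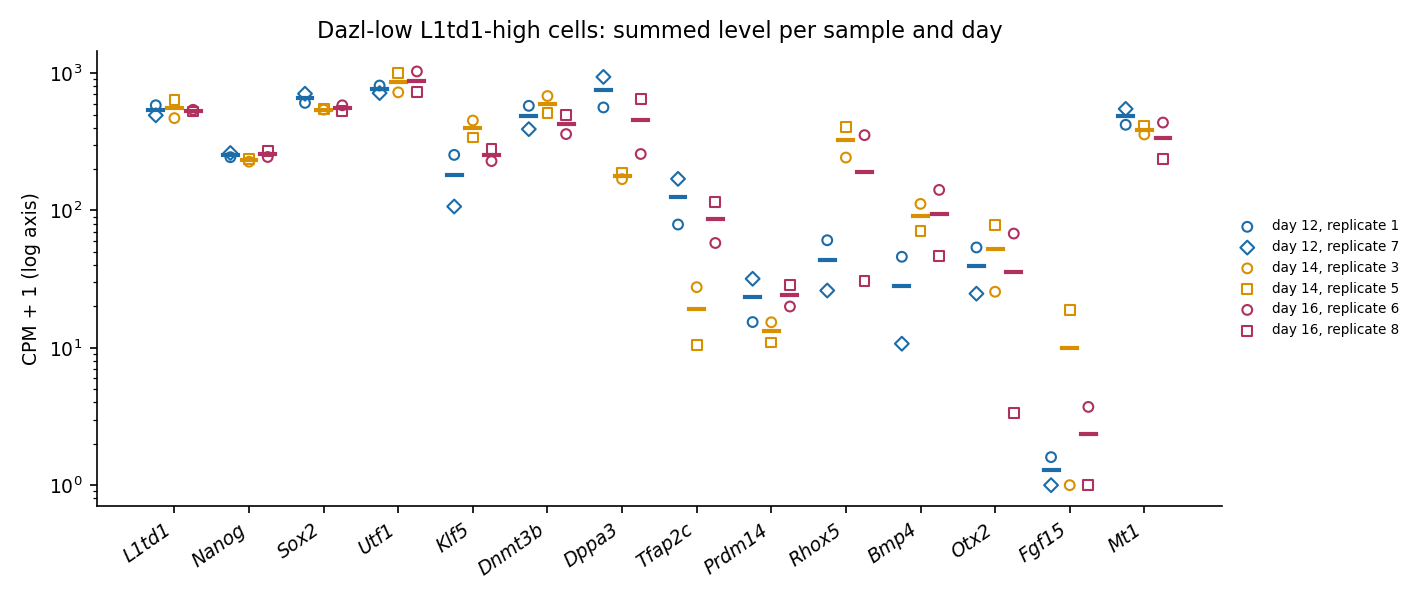
Level of 14 genes in *Dazl*-low *L1td1*-high cells (y axis, CPM + 1, log scale), with 1 point per summed sample, days side by side and a bar at the mean of each day. *Nanog* and *Sox2* lay close together in all 6 sums, whereas *Rhox5* differed 12-fold and *Otx2* 28.3-fold between the 2 day 16 samples.

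Within samples, the same genes were carried by different numbers of cells. Cells were thinned to 40000 UMIs each to compare shares of cells with a UMI, and 0 to 7 shallower cells were left out per sum of the *Dazl*-low *L1td1*-high state. *Tfap2c* was found in 14 of 25 thinned cells of replicate 1 (56%), 29 of 31 of replicate 7 (93.5%), 2 of 6 of replicate 3 (33.3%), 5 of 47 of replicate 5 (10.6%), 3 of 7 of replicate 6 (42.9%) and 12 of 15 of replicate 8 (80%). *Rhox5* was found in 5 of 25 (20%), 4 of 31 (12.9%), 2 of 6 (33.3%), 40 of 47 (85.1%), 6 of 7 (85.7%) and 5 of 15 cells (33.3%) in the same order. As deposited, the shares of *Tfap2c* were 80.8%, 92.1%, 33.3%, 22.2%, 62.5% and 86.7%, and those of *Rhox5* 30.8%, 23.7%, 50%, 87.0%, 87.5% and 46.7%. Replicates 1, 7 and 8 thus had more cells with *Tfap2c* than with *Rhox5*, and replicates 5 and 6 had more with *Rhox5*.

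Shares in *Dazl*-high cells were read in the same way, first in the 6 samples that held both states. Of thinned *Dazl*-high cells, *Tfap2c* was found in 41.7% of replicate 1 and 28.6% of replicate 7 (day 12), 2.90% of replicate 3 and 8.33% of replicate 5 (day 14), and 14.8% of replicate 6 and 41.7% of replicate 8 (day 16). *Rhox5* was found in 15% and 5.71%, 15.9% and 54.2%, and 74.1% and 5% of them. In these 6 samples replicates 5 and 6 had the 2 highest *Rhox5* shares in both states. They were also the only samples built from libraries numbered 1.6, so the library number and this pattern cannot be told apart. As deposited, the shares in *Dazl*-high cells were 59.7%, 35.3%, 4.88%, 8.82%, 11.8% and 58.1% for *Tfap2c* and 20.9%, 19.6%, 29.3%, 67.6%, 75% and 8.11% for *Rhox5*. *Dppa3* had a UMI in 85% and 88.6% of thinned *Dazl*-high cells of replicates 1 and 7 of day 12, 39.1% and 58.3% on day 14, and 51.9% (replicate 6) and 85% (replicate 8) on day 16. The other day 12 samples, replicates 2 and 4, which held no *Dazl*-low *L1td1*-high cells, had lower *Tfap2c* shares than replicates 1 and 7 after thinning, 17.4% of 86 and 5.80% of 69 cells, and lower *Dppa3* shares, 76.7% and 26.1%. Their *Rhox5* shares were 8.14% and 17.4%. As deposited, of 91 cells each, *Tfap2c* was found in 50.5% and 6.59%, *Rhox5* in 24.2% and 27.5% and *Dppa3* in 93.4% and 35.2%. The day 12 shares of *Tfap2c* and *Dppa3* in *Dazl*-high cells thus overlapped those of both later days. The pairing of *Tfap2c* with *Rhox5* was chosen after their values were seen, and cells of a sample are not replicates, so no test was made.

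**Figure D3:**
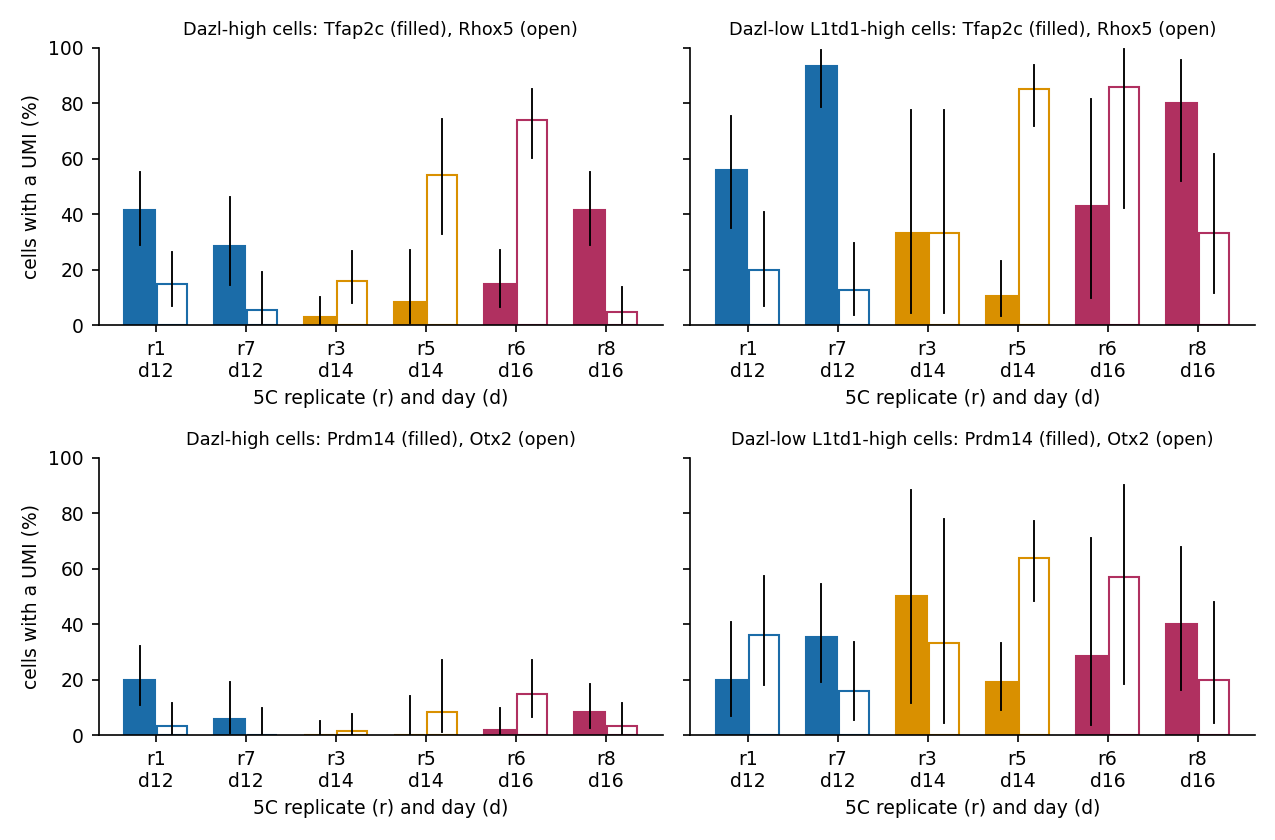
Share of cells with at least 1 UMI (y axis, percent, cells thinned to 40000 UMIs) for *Tfap2c* and *Rhox5* (top) and *Prdm14* and *Otx2* (bottom) in the 6 samples that hold both states, with exact binomial 95% intervals. In both states replicates 5 and 6 had more cells with *Rhox5* than with *Tfap2c*, and replicates 1, 7 and 8 had more cells with *Tfap2c* than with *Rhox5*. Replicate 3, from a library numbered 1, had *Rhox5* in 15.9% and *Tfap2c* in 2.90% of *Dazl*-high cells. In its *Dazl*-low *L1td1*-high cells both shares were 33.3%. Replicates 5 and 6 are also the samples from libraries numbered 1.6.

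Levels also varied widely between the cells of 1 sample. In replicate 5 the quartiles of *Rhox5* over 54 *Dazl*-low *L1td1*-high cells were 14.6, 52.0 and 844 CPM, so a minority of cells carried most of its UMIs. In replicate 1 the median cell had 0 CPM of *Rhox5* and the highest had 1146 CPM. *Dppa3* had a median of 628 and 925 CPM per cell on day 12, 120 and 111 CPM on day 14, and 164 and 576 CPM on day 16.

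The shares of cells with *Prdm14* and *Otx2* did not follow the days. Of *Dazl*-low *L1td1*-high cells as deposited, *Prdm14* without *Otx2* was found in 11.5% and 26.3% on day 12, 33.3% and 5.56% on day 14, and 0 of 8 cells (exact 95% upper limit 36.9%) and 26.7% on day 16. *Otx2* without *Prdm14* was found in 26.9% and 0 of 38 cells (upper limit 9.25%) on day 12, 16.7% and 48.1% on day 14, and 25% and 6.67% on day 16. Both genes were found in 11.5% and 13.2%, 16.7% and 16.7%, and 50% and 13.3% of the cells, and neither gene in 50% and 60.5%, 33.3% and 29.6%, and 25% and 53.3%. In *Dazl*-high cells of all 8 samples as deposited *Otx2* was found in 1.10% to 17.1% and *Prdm14* in 0 of 82 to 23.9% of cells, and in replicate 1 the share with *Prdm14* was as high in *Dazl*-high (23.9%) as in *Dazl*-low *L1td1*-high cells (23.1%). Median depths per cell were 58161 to 107386 UMIs in *Dazl*-high and 76952 to 150587 UMIs in *Dazl*-low *L1td1*-high cells. After thinning, *Otx2* was found in 36% and 16.1%, 33.3% and 63.8%, and 57.1% and 20% of *Dazl*-low *L1td1*-high cells. *Prdm14* was then found in 20% and 35.5%, 50% and 19.1%, and 28.6% and 40%. Both genes were then found in 8% and 16.1%, 16.7% and 12.8%, and 14.3% and 13.3% of them. In replicate 6, thinned cells with *Otx2* without *Prdm14* were 3 of 7, and those with *Prdm14* without *Otx2* were 1 of 7.

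In *Dazl*-high cells 15 of the 18 genes tested of SSC self-renewal and GDNF response overlapped between day 12 and day 16, and 2 had an unadjusted p below 0.05, *Egr4* and *Shisa6*, the second with at most 2.80 CPM. Over all genes tested in this state 11.6% did not overlap between these days and 2.85% had an unadjusted p below 0.05. *Dazl* itself had 1221, 1081, 1469 and 1326 CPM on day 12 (replicates 1, 2, 4 and 7), 1589 and 1252 CPM on day 14 and 1396 and 1355 CPM on day 16. *Etv5*, a transcription factor gene that responds to GDNF, had 248, 209, 183 and 193 CPM on day 12, 174 and 262 CPM on day 14 and 248 and 159 CPM on day 16, with a log2 fold change of -0.03 (95% interval -0.46 to 0.40). *Ret*, the GDNF receptor gene, had a log2 fold change of -0.02 (-0.46 to 0.41), and *Sall4* of -0.15 (-0.60 to 0.30). *Ccnd2*, a cyclin gene of spermatogonia, had 399 CPM in replicate 1 and 708, 860 and 942 CPM in the other day 12 samples, 807 and 757 CPM on day 14 and 1065 and 814 CPM on day 16, and the days overlapped. *Sycp1*, a gene of the synaptonemal complex in meiosis, had 386 to 526 CPM on day 12, 470 and 512 CPM on day 14 and 391 and 658 CPM on day 16, and *Smc1b*, a meiotic cohesin gene, had 237 to 593, 596 and 580, and 403 and 612 CPM.

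Of *Dazl*-high sums, that of replicate 1 of day 12 had the highest *Nanog*, *Sox2*, *Tfap2c*, *Dppa3* and *Prdm14*. *Nanog* had 78.7 CPM there, 14.8, 1.38 and 15.8 CPM in replicates 2, 4 and 7, 1.06 and 11.2 CPM on day 14 and 18.3 and 20.5 CPM on day 16. *Sox2* had 346 CPM in replicate 1, 71.6, 72.6 and 143 CPM in the other day 12 samples, 196 and 216 CPM on day 14 and 109 and 141 CPM on day 16. *Tfap2c* had 88.4 CPM in replicate 1 and 6.08, 1.04 and 15.2 CPM in the others of day 12, 1.95 and 1.40 CPM on day 14 and 11.7 and 28 CPM on day 16. In replicate 1, 18 of 67 *Dazl*-high cells (26.9%, 16.8 to 39.1) had *L1td1* of at least 100 CPM, against 0% to 11.8% of those of the other samples. *Dppa3* had 328, 51.2, 21.6 and 95.7 CPM on day 12, 26.2 and 92.9 CPM on day 14 and 36.7 and 84.2 CPM on day 16. *Prdm14* had 14.8 CPM in replicate 1 and 0 to 3.28 CPM in the other sums. Per cell, the median of *Nanog* was 13.65 CPM in replicate 1 and 15.64 CPM in replicate 6. That of *Dppa3* was 51.2 CPM in replicate 1 and 59.7 CPM in replicate 7. Replicate 1 had the highest medians of *Sox2* (173 CPM) and *Tfap2c* (12.3 CPM), and the median of *Prdm14* was 0 in every sample. Replicate 1 was also the only day 12 sample built from a library numbered 1. Between day 16 and day 12 the log2 fold change was -0.52 for *Nanog* (95% interval -2.39 to 1.36), -0.34 for *Sox2* (-1.26 to 0.58), -0.48 for *Tfap2c* (-2.44 to 1.48), -1.03 for *Dppa3* (-2.53 to 0.46) and -1.09 for *Prdm14* (-3.93 to 1.75). Without replicate 1 all 5 were positive, at 0.87, 0.40, 1.46, 0.13 and 0.85 in the same order.

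The remaining stage markers were low in *Dazl*-high cells. *Rhox5* had 7.27, 2.17, 6.22 and 3.73 CPM on day 12, 8.49 and 20.5 CPM on day 14, and 29.2 (replicate 6) and 1.88 CPM (replicate 8) on day 16. Its log2 fold change was 1.67 (95% interval 0.10 to 3.25), and -1.36 without replicate 6, and the day 12 and day 16 samples overlapped. *Bmp4* had 0.174 to 2.07 CPM on day 12, 0.354 and 12.6 CPM on day 14 and 1.01 and 3.91 CPM on day 16. *Otx2* had 0.173 to 2.42 CPM on day 12 and 3.23 and 2.50 CPM on day 16, and *Eomes* 0.454 to 6.17 CPM on day 12 and 1.01 and 0 CPM on day 16. *Fgf15* had at most 1.40 CPM in any sum.

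**Figure D4:**
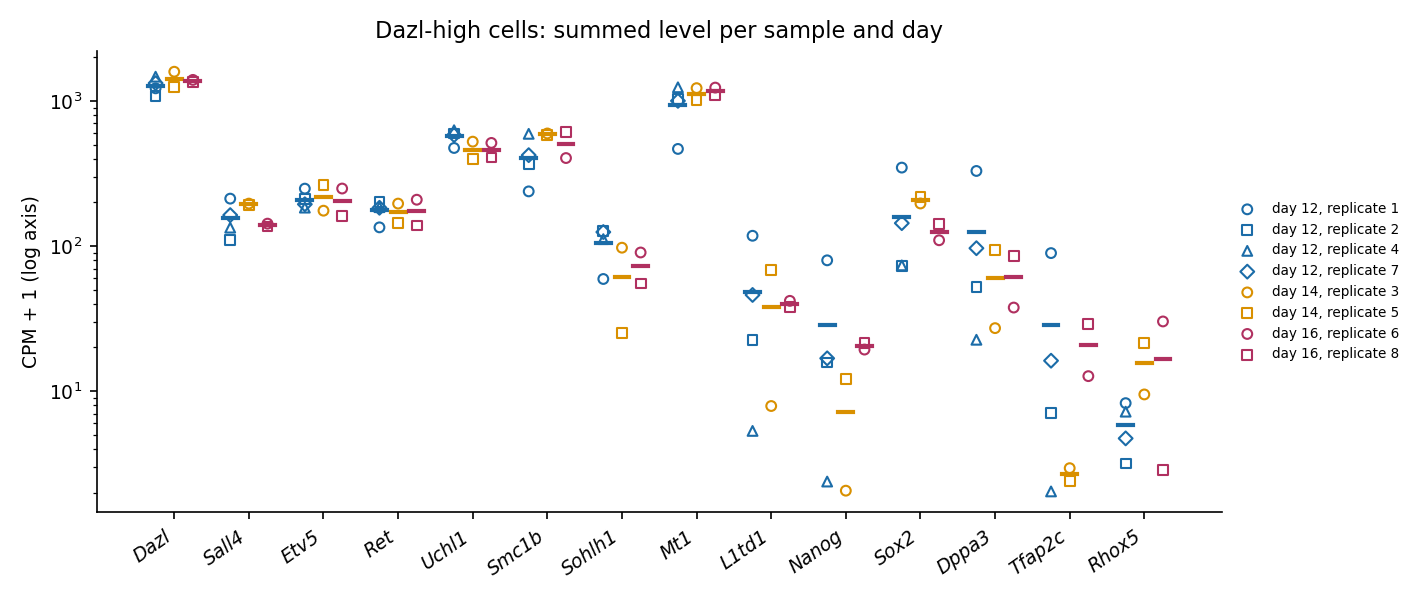
Level of 14 genes in *Dazl*-high cells (y axis, CPM + 1, log scale), with 1 point per summed sample, days side by side and a bar at the mean of each day. *Dazl* lay between 1081 and 1589 CPM in all 8 sums, and replicate 1 of day 12 was the highest for *Nanog*, *Sox2*, *Dppa3* and *Tfap2c*. By the median cell, replicate 1 was the highest for *Sox2* and *Tfap2c* but not for *Nanog* and *Dppa3*.

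Across all genes, no gene was called between day 16 and day 12 in either state. In *Dazl*-high cells 0 of 13525 genes tested (0%) passed an adjusted p below 0.05 and a 1.65-fold change by edgeR, 386 genes (2.85%) had an unadjusted p below 0.05, and DESeq2 called 0 with 471 genes at an unadjusted p below 0.05. In *Dazl*-low *L1td1*-high cells 0 of 10617 genes (0%) were called, 328 (3.09%) had an unadjusted p below 0.05, and DESeq2 called 0 with 364 at an unadjusted p below 0.05. Both shares of unadjusted p-values lay under 5%. These counts are limited by the samples: the median 95% interval of a log2 fold change reached 0.79 to either side in *Dazl*-high and 1.31 in *Dazl*-low *L1td1*-high cells. The count in *Dazl*-low *L1td1*-high cells was 19 with no filter on low counts, 44 when sums of fewer than 10 cells were left out, which leaves 1 sample on day 14 and 1 on day 16, and 9, 4 and 2 without replicates 1, 7 and 8.

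**Figure D5:**
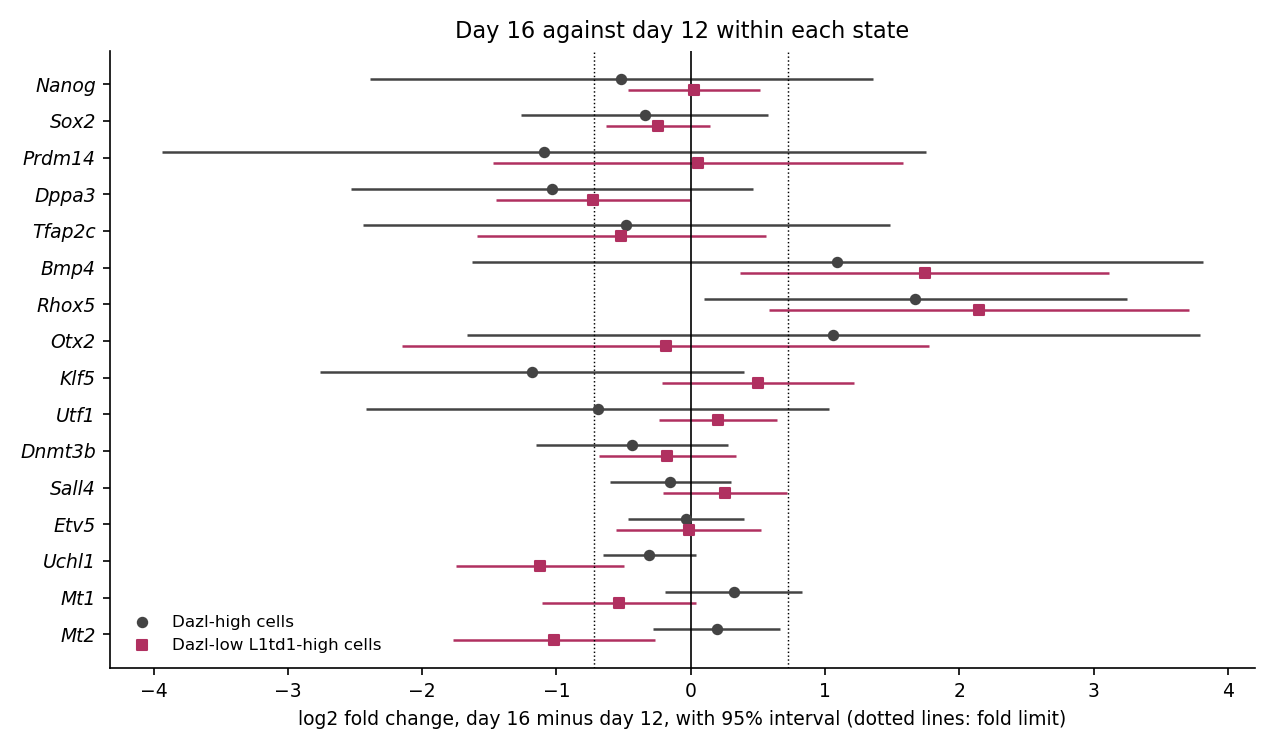
Log2 fold change of day 16 against day 12 (x axis) with its 95% interval for 16 genes in *Dazl*-high (circles) and *Dazl*-low *L1td1*-high cells (squares), with dotted lines at the limit of 0.72 that a call required. The interval of *Nanog* ran from -0.47 to 0.52 in *Dazl*-low *L1td1*-high cells and from -2.39 to 1.36 in *Dazl*-high cells.

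Several genes with a low unadjusted p in *Dazl*-low *L1td1*-high cells, named after their values were seen, had day 12 and day 16 samples that did not overlap. *Rpl39l*, a ribosomal protein paralog of the germ line, had 208 and 116 CPM on day 12, 355 and 314 CPM on day 14 and 378 and 427 CPM on day 16 (log2 fold change 1.31, SE 0.27). *Fstl1*, a secreted glycoprotein gene, had 103 and 71.1 CPM on day 12, 82.0 and 85.3 CPM on day 14 and 12.7 and 24.8 CPM on day 16 (-2.19, SE 0.46). *Trh*, the precursor of thyrotropin-releasing hormone, had 1072 and 555 CPM on day 12, 666 and 599 CPM on day 14 and 321 and 423 CPM on day 16 (-1.13, SE 0.26). *Uchl1*, a deubiquitinase gene of spermatogonia, had 177 and 168, 143 and 163, and 73.3 and 85.0 CPM (-1.12, SE 0.29), and *Vim*, the intermediate filament vimentin, 223 and 195, 263 and 208, and 114 and 98.0 CPM (-0.98, SE 0.27). *Peg3*, a paternally expressed imprinted gene, had 320 and 326 CPM on day 12, 435 and 351 CPM on day 14 and 182 and 210 CPM on day 16 (-0.72, SE 0.23). All 6 had an adjusted p of 1.0 by edgeR. With no filter on low counts *Rpl39l*, *Fstl1* and *Trh* passed the threshold (adjusted p = 0.00159, 0.00644 and 0.000242 by edgeR). In fits that left 1 sum on day 12 or day 16 only effect sizes are given. The change of *Rpl39l* was 1.78 without replicate 1 and 1.39 with at least 10 cells per sum. That of *Fstl1* was -1.81 with at least 10 cells per sum, and that of *Trh* was -1.53 without replicate 7. *Uchl1*, *Vim* and *Peg3* passed in none of the alternatives run. Of all genes tested in this state 3470 (32.7%) had day 12 and day 16 samples that did not overlap, so separation of 2 from 2 samples is common here.

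Genes with a low unadjusted p in *Dazl*-high cells, also named after their values were seen, included both scarce and abundant transcripts. *Pcolce*, an enhancer of collagen processing, had 6.51 to 10.4 CPM on day 12, 26 and 16.3 CPM on day 14 and 30.8 and 25 CPM on day 16 (log2 fold change 1.75, SE 0.39). *Dmrt3*, a DM domain transcription factor gene, had 12.3 to 21.3 CPM on day 12, 31.7 and 34.5 CPM on day 14 and 38.7 and 34.4 CPM on day 16 (1.16, SE 0.31). *Mrpl52*, a mitochondrial ribosomal protein gene, had 427 to 503 CPM on day 12, 669 and 777 CPM on day 14 and 616 and 692 CPM on day 16 (0.52, SE 0.14). *Sp5*, a Wnt target, had 143, 75.9, 64.6 and 100 CPM on day 12, 98.6 and 112 CPM on day 14 and 65.3 and 45.3 CPM on day 16 (-0.80, SE 0.28), and these days overlapped. Their adjusted p was 1.0, and the day 12 and day 16 samples did not overlap for 1574 of all genes tested in this state (11.6%).

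Of 335 list genes in the table, *Dazl* and *L1td1* were left out because they chose the cells, 294 were tested in *Dazl*-high cells and 252 in *Dazl*-low *L1td1*-high cells, and 0 were called in each. Of these, 23 (7.82%) and 82 (32.5%) did not overlap between day 12 and day 16, against 11.6% and 32.7% of all genes, and 12 (4.08%) and 18 (7.14%) had an unadjusted p below 0.05, against 2.85% and 3.09% of all genes. The median log2 fold change of all genes was -0.01 in *Dazl*-high and 0.00 in *Dazl*-low *L1td1*-high cells, and list medians are given in the same order of states.

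Germ line lists had medians of 0.07 and -0.02 for SSC self-renewal and GDNF response (18 and 11 genes tested), 0.04 and -0.18 for germ cell identity (15 and 13), 0.27 and -0.01 for spermatogonial differentiation (10 and 8) and 0.14 and -0.03 for meiosis (16 and 9). Pluripotency lists had medians of -0.16 and 0.20 for core pluripotency (16 and 15), -0.41 and 0.02 for naive pluripotency (16 and 16), -0.43 and -0.31 for primordial germ cell genes (14 and 14), 0.06 and -0.42 for formative and primed epiblast genes (15 and 13) and 0.40 and -0.42 for mesendoderm and Nodal genes (11 and 6). For the stage markers named by the study, a list chosen by the study on cells of this series, the medians were -0.48 and -0.08 (9 and 8). In the epiblast list 10 of 13 members had negative fold changes in *Dazl*-low *L1td1*-high cells. *Zic2*, a zinc finger gene of the epiblast that was named after its values were seen, had 20.1 and 12.4 CPM on day 12, 0 and 11.4 CPM on day 14 and 0 and 0.590 CPM on day 16. *Lefty1*, a Nodal inhibitor, had 4.50 and 49.9, 26.7 and 65.0, and 7.24 and 0 CPM.

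Metabolic and chromatin lists lay near 0 in *Dazl*-high cells. The medians were -0.05 and -0.09 for glycolytic enzymes (18 and 17), 0.00 and -0.21 for hypoxia response (15 and 13), 0.06 and -0.11 for DNA methylation writers and erasers (9 and 9), and 0.08 and -0.55 for imprinted genes (19 and 14). *Gapdh* had 1617 and 1571 CPM on day 12, 1753 and 1852 CPM on day 14 and 1470 and 1354 CPM on day 16 in *Dazl*-low *L1td1*-high cells. *Dnmt3b*, a de novo DNA methyltransferase gene, had 577 and 390, 681 and 514, and 359 and 497 CPM there, and *Dnmt3l*, its cofactor, 378 and 287, 666 and 457, and 219 and 270 CPM. *Tet1*, an enzyme of DNA demethylation, had 310 and 339, 488 and 371, and 326 and 351 CPM. *Nnat*, another paternally expressed imprinted gene, had 52.2 and 128, 57.4 and 103, and 39.8 and 35.4 CPM.

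Signalling, stress and cycle lists had medians of 0.14 and 0.12 for ERK feedback and immediate early genes (15 and 13), -0.10 and 0.20 for Wnt targets (8 and 6), 0.05 and -0.04 for the endoplasmic reticulum stress response (15 and 15), 0.04 and -0.46 for NRF2 and redox genes (13 and 13), and 0.01 and -0.44 for p53 targets (12 and 12). For S phase and mitosis genes they were -0.02 and 0.08 (18 and 18), for cyclins and inhibitors of G1 -0.07 and 0.05 (13 and 13), and for mitochondrially encoded genes 0.22 and -0.02 (12 and 9). In *Dazl*-low *L1td1*-high cells 11 of 13 redox genes and 10 of 12 p53 targets had negative fold changes. *Cdkn1a*, the cell cycle inhibitor p21, had 153 and 254 CPM on day 12, 189 and 148 CPM on day 14 and 127 and 144 CPM on day 16, and *Zmat3*, another p53 target, named after its values were seen, had 56.7 and 59.0, 41.0 and 52.0, and 28 and 15.9 CPM. Lists of other cell types had medians of 0.04 and 0.41 for fibroblast and feeder markers (6 and 4), 0.24 and -1.03 for testis somatic markers (5 and 4), -0.28 and -1.56 for neural markers (4 and 4) and 1.27 and 0.54 for blood and endothelial markers (3 and 2). The levels of *Fn1*, 350 and 319 CPM on day 12, 412 and 449 CPM on day 14 and 393 and 563 CPM on day 16, and of *Sparc*, 198 and 344, 541 and 149, and 351 and 317 CPM, made up most of the fibroblast sum of *Dazl*-low *L1td1*-high cells, and their part in the other values was not tested.

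Whether the change from day 12 to day 16 differed between the states was tested within the 6 samples that hold both. The sample was a block, which left 3 residual degrees of freedom per gene. The p-values and intervals of this edgeR test draw mostly on a spread pooled over all genes, so the calls depend on that pooling. Of 12891 genes tested, 10 (0.0776%) were called, 6 with a more positive (0.0465%) and 4 with a more negative change (0.0310%) in *Dazl*-low *L1td1*-high cells, and 529 (4.10%) had an unadjusted p below 0.05. *Mt1* and *Mt2*, metallothionein genes, had the more negative change there, by -1.39 and -1.61 on the log2 scale (SE 0.23 and 0.26, adjusted p = 4.19e-05 and 3.41e-05 by edgeR). *Khdc3*, a maternal effect gene of oocytes and embryos, differed by 3.58 (SE 0.58, adjusted p = 3.41e-05), *Calcoco2*, an autophagy receptor gene, by 3.96 (SE 0.72, 0.000338), and *Klf5* and *Fbxo15*, both genes of embryonic stem cells, by 2.1 (SE 0.39, 0.000492) and 2.58 (SE 0.48, 0.000492). The other 4 genes called were *Sgk1*, *Smc1b*, *Utf1* and *Gm14820*. In replicate 7 the states came mostly from different libraries, so the sample block there spans both.

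In *Dazl*-high cells replicate 1 lay apart from replicate 7 for several of these genes. In *Dazl*-high cells *Mt1* had 466 CPM in replicate 1 and 1001 CPM in replicate 7 on day 12, and 1235 and 1095 CPM on day 16. *Khdc3* had 89.5 and 5.90 CPM on day 12 and 2.42 and 13 CPM on day 16, *Klf5* had 108 and 14.9 CPM and then 8.87 and 23.4 CPM, and *Fbxo15* had 61.8 and 28.3 CPM and then 12.9 and 12.5 CPM. In *Dazl*-low *L1td1*-high cells *Khdc3* had 98.5 and 41.9 CPM on day 12, 203 and 32.9 CPM on day 14 and 146 and 237 CPM on day 16. *Calcoco2* had 19.5 and 25.5, 183 and 11.8, and 161 and 121 CPM there, and 1.40 to 8.63 CPM in the sums of *Dazl*-high cells. Without replicate 1, 1 gene was called (*Rpl39l*) and the adjusted p of the 6 named genes ran from 0.0685 to 1.0, with differences of 3.33 for *Calcoco2*, 2.05 for *Khdc3*, 2.00 for *Fbxo15*, 1.23 for *Klf5*, -1.45 for *Mt2* and -1.02 for *Mt1*, and without replicate 7, 31 genes were called. Without replicate 3 and without replicate 5, 25 and 15 genes were called, with the 6 named genes among them. Without replicate 6 the adjusted p of *Calcoco2* and *Klf5* was 0.105 and 0.186, and without replicate 8 that of *Mt1* and *Mt2* was 0.0548. When *Dazl*-high cells with at least 100 CPM of *L1td1* were left out, *Calcoco2*, *Klf5* and *Fbxo15* had 0.0976, 0.372 and 0.444. With no replicate block, 0 genes were called. For the stage markers the difference of the changes was 0.75 for *Rhox5* (95% interval -0.23 to 1.73), 0.55 for *Tfap2c* (-0.74 to 1.83), 0.83 for *Dppa3* (0.17 to 1.48, adjusted p = 0.973) and -2.19 for *Otx2* (-4.36 to -0.03, adjusted p = 1.0). Without replicate 7, which left 1 sample on day 12, the adjusted p of *Dppa3* and *Nanog* fell below 0.05 by edgeR.

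Day 14 stood further from day 12 than day 16 did for some genes. In a test that was added after the data were seen, 4 of 13525 genes (0.0296%) were called between day 14 and day 12 in *Dazl*-high cells, 2 higher (0.0148%) and 2 lower (0.0148%) on day 14, and 993 (7.34%) had an unadjusted p below 0.05. *Emb*, which encodes the membrane glycoprotein embigin, rose from 75.6, 69.5, 80.0 and 111 CPM on day 12 to 209 and 190 CPM on day 14, and had 122 and 107 CPM on day 16 (log2 fold change 1.26, SE 0.20, edgeR adjusted p = 0.0371). *Rxrg*, a retinoid X receptor gene, rose from between 7.14 and 13.3 CPM on day 12 to 31.3 and 68.1 CPM, and had 15.3 and 14.8 CPM on day 16 (2.36, SE 0.38, 0.0372). *Gbp2*, an interferon-induced GTPase gene, fell from between 37.3 and 60.8 CPM to 10.4 and 9.80 CPM, and had 46.0 and 31.1 CPM on day 16 (-2.23, SE 0.35, 0.0371). *Hmgn5*, a nucleosome-binding protein gene, fell from between 78.3 and 166 CPM to 29.9 and 33.1 CPM, and had 123 and 116 CPM on day 16 (-1.74, SE 0.30, 0.0489). The count was 0 without replicate 2, replicate 4 or replicate 5, 2 without replicate 3 and 16 without replicate 1. The day 14 sum of replicate 5 also carried the most testis somatic markers, 292 CPM against 49.0 to 103 CPM in the other 7 sums, mainly through *Vim* (229 against 9.02 to 75.8 CPM), and the highest fibroblast sum, 374 CPM, with 343 CPM in replicate 1 next. The part of these markers in the day 14 values was not tested.

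In *Dazl*-low *L1td1*-high cells 0 of 10617 genes were called between day 14 and day 12 by edgeR, and 376 (3.54%) had an unadjusted p below 0.05; DESeq2 was not run on this comparison. The lowest adjusted p, 0.226, was that of *Spp1*, the secreted protein osteopontin, and of *Dppa3*. *Spp1* had 345 and 201 CPM on day 12, 716 and 985 CPM on day 14 and 328 and 481 CPM on day 16, with a log2 fold change of 1.64 (SE 0.27). *Dppa3* had a log2 fold change of -2.06 (SE 0.36), *Tfap2c* of -3.06 (SE 0.60, adjusted p = 0.320) and *Rhox5* of 2.95 (SE 0.74, adjusted p = 0.813). The day 14 sum of replicate 3 held 6 cells, and without it 0 genes were called in this comparison and 3 between day 16 and day 12. The sum of replicate 3 also carried the most testis somatic markers of this state, 408 CPM with 261 CPM in replicate 1 next. Its fibroblast sum was the highest too, 962 CPM with 926 CPM in replicate 8 next. *Gata4*, a testis somatic marker, was found in no other sum of this state. The part of these markers in the day 14 values of this state was not tested. Fits without replicate 1 or replicate 7 left 1 sum on day 12. In these 2 fits the change from day 12 to day 14 was -2.39 and -1.67 for *Dppa3*, 2.08 and 1.29 for *Spp1*, and 3.70 and 2.44 for *Rhox5*. For *Tfap2c* it was -3.47 without replicate 1.

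As whole profiles, the day 16 samples were no nearer to each other than to samples of day 12. Sums were not matched for depth in these distances. In *Dazl*-low *L1td1*-high cells the day 16 sums held 1093641 and 1706353 UMIs, against 3187200 and 2999740 on day 12. Over genes tested, the root mean square difference in log2 CPM was 0.874 between the day 12 and 1.26 between the day 16 samples in *Dazl*-low *L1td1*-high cells, and 0.978 to 1.18 between samples of day 12 and day 16. In *Dazl*-high cells it was 0.846 to 1.10 between day 12 samples, 1.0 between the day 16 samples and 0.909 to 1.07 between the days. In each state 1 day 14 sample lay far from all others, its own day included. It was also the sum with the fewest UMIs of its state, 492225 in *Dazl*-low *L1td1*-high and 2187261 in *Dazl*-high cells. Such differences grow as counts fall, and the part of depth was not tested. Replicate 3, with 6 *Dazl*-low *L1td1*-high cells, lay 1.46 to 1.6 from every other sum of that state, and replicate 5 lay 0.785 to 1.08 from those of days 12 and 16. Among *Dazl*-high sums replicate 5 lay 1.13 to 1.25 from every other, and replicate 3 lay 0.873 to 1.07 from those of days 12 and 16.

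On GRCm38, in the GENCODE vM21 annotation counted from 1, *Rhox5* lies on the plus strand of chromosome X from 37804842 to 37808876 and *Tfap2c* on the plus strand of chromosome 2 from 172549593 to 172558622. *Dppa3* lies on the plus strand of chromosome 6 from 122626410 to 122630272 and *Nanog*, on the same strand and chromosome, from 122707489 to 122714633. *Prdm14* lies on the minus strand of chromosome 1 from 13113457 to 13127163 and *Otx2* on the minus strand of chromosome 14 from 48657677 to 48673819. UMIs were counted over whole genes, so the values do not tell transcripts of a gene apart.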

How the data were processed

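The values deposited by the authors are UMI counts, not normalized, for each gene in each cell. Per the study's methods and processing notes, UMItools v1.0.0 extracted barcodes and counted molecules, STAR 2.7.2b aligned reads to mm10 and featureCounts 2.0.0 assigned them to genes. Cells with fewer than 2000 genes or over 5% mitochondrial reads and genes found in fewer than 3 cells had been removed by the authors, and the fewest genes of a cell in the table was 2014. The counting is not stated to use strand in the sources used here. No doublet caller was run, as cells were picked one at a time.

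Counts were used as deposited. Sums held 492225 to 10723044 UMIs. edgeR 4.0.16 in R 4.3.3 (TMM, filterByExpr, glmQLFit, glmQLFTest) was fitted over days 12, 14 and 16 within a state, and calls needed a p below 0.05 after Benjamini-Hochberg adjustment and a fold change, as natural log, of 0.5 or more in either direction. Intervals of fold changes are at 95% by the fit's degrees of freedom, and those of shares are exact binomial. The state difference used the sample as a block. Alternatives were RLE size factors, DESeq2 1.42.0, no filter on low counts, other limits on *Dazl*, *L1td1*, depth and cells per sum, thinned cells, sums per library, and 1 sample left out, for day 14 against day 12 from those days only (day 14 samples in the other comparisons were added after seeing the data). Shares were thinned with a fixed seed in numpy 2.4.6, tables were made with pandas 2.3.3 and scipy 1.17.1, and figures with matplotlib 3.10.9. The fits were also run on simulated counts with known changes. Those for the state difference gave every gene the same spread, so they do not check the pooling of spread that its calls depend on.

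Named genes were, in each state, the 10 called genes of largest change in each direction with non-overlapping days and at least 10 CPM, the stage markers named by the study, up to 4 members of each list (called members first, then those of highest CPM) and the 6 genes of lowest adjusted p for the state difference. The first part named no gene, as 0 were called. Other genes with values were named after their values were seen. The cells, lists and rule were chosen with earlier results of these data known. Of 344 list genes, 9, *Fgf5* among them, were not analysed here. The day was read from cell names.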

Additional observations from a re-analysis of the deposited data

Results flagged for a closer look

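Among 99 named genes, the 4 day 12 samples of *Dazl*-high cells were checked for 1 sample that stood far from the other 3, and 13 genes had one. The limit used is passed by about 1 in 20 sets of 4 independent normal values, which CPM values of scarce genes are not. The 99 genes also share the same 4 sums, so their count cannot be set against chance. In 8 of the 13 it was replicate 1, the only day 12 sample built from a library numbered 1. *Prdm14* (14.8 CPM), *Tfap2c* (88.4 CPM), *Dppa5a* (487 CPM), an RNA-binding protein gene of pluripotent cells, and *Wt1* (31.5 CPM), a zinc finger gene of gonadal somatic cells, were high in replicate 1. *Pou3f1* (138 CPM), a transcription factor gene of SSCs, *Lhx1* (65.6 CPM), a GDNF-regulated gene, *Egr1* (78.4 CPM), an immediate early gene, and *Mt2* (315 CPM) were low in it. In replicate 4 *Socs3*, a feedback inhibitor of cytokine signalling, was low (113 CPM) and *Fgf15* had 0.173 CPM against 0 in the other samples, which is 1 UMI and under the 0.519 CPM that 3 counts are worth in that sum, so it shows no difference. *Cenpf*, a mitotic gene, was low in replicate 2 (410 CPM). *Vim* (75.8 CPM) and the haemoglobin gene *Hba-a1* (10.9 CPM) were high in replicate 7.

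The change from day 12 to day 16 differed between the states in 10 genes by edgeR's quasi-likelihood test with the sample as a block, and the 6 of lowest adjusted p are given here. The differences of the log2 fold changes were -1.61 for *Mt2*, 3.58 for *Khdc3*, -1.39 for *Mt1*, 3.96 for *Calcoco2*, 2.1 for *Klf5* and 2.58 for *Fbxo15*, with adjusted p from 3.41e-05 to 0.000492. Over the alternatives run, the adjusted p of these genes ran from 6.21e-09 to 1.0, and without replicate 1 it was above 0.05 for all 6.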

How the results depend on the processing

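Between day 16 and day 12, 0 genes were called in *Dazl*-high cells, with a range of 0 to 1 over fits that left out 1 sample (*Mtap7d3* without replicate 1) and 2 with no filter on low counts (*Gm26815* higher and *Rpl29* lower on day 16). In *Dazl*-low *L1td1*-high cells the count of 0 became 19 with no filter on low counts, 44 with at least 10 cells per sum, 3 without the day 14 sum of 6 cells (added after seeing the data) and 0 to 9 over fits that left out 1 sample. Under DESeq2, RLE size factors, no fold limit, other limits on *Dazl* and *L1td1*, cells with at least 20000 UMIs, thinned cells, sums per library and a fit of days 12 and 16 alone both counts stayed at 0. Sums per library could not change the count in *Dazl*-low *L1td1*-high cells, as those of each sample came from 1 library. Between day 14 and day 12 the counts, 4 and 0, ran from 0 to 16 and from 0 to 32 without 1 sample. A fit that left 1 sample on a day assumes that this sample varies like the others.

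The state difference called 10 genes with the replicate block and 0 with no replicate block, and 1 to 31 without 1 sample (day 14 samples added after seeing the data); it called 8 with RLE size factors, 12 with no filter on low counts and 7 without *Dazl*-high cells of at least 100 CPM of *L1td1* (added after seeing the data). The causes were not tested. For *Otx2* and *Lefty1* in *Dazl*-low *L1td1*-high cells, at least 10 cells per sum gave log2 fold changes of -4.00 and -9.46 that passed the threshold with 1 sample on day 16. *Kcnq1ot1* also passed it there under that limit (1.38). Of the values of named genes under the alternatives (95 tested in *Dazl*-high, 94 in *Dazl*-low *L1td1*-high cells, and 6 for the state difference), 3607 kept their side of the threshold, 7 came to pass it and 19 no longer passed it, all for the state difference. Of the 3607, 288 had the opposite sign, all of them below the threshold in both fits, and they belonged to 61 genes in *Dazl*-high and 54 in *Dazl*-low *L1td1*-high cells. No value past the threshold changed sign. Depth limits the smallest sum, of 492225 UMIs, where 3 counts are 6.15 CPM.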

Other observations

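*Kit*, the receptor gene of differentiating spermatogonia and primordial germ cells, had 30.9 CPM in replicate 1 and 0.531 to 9.94 CPM in the other sums of *Dazl*-high cells, and 5.43 to 57.4 CPM in those of *Dazl*-low *L1td1*-high cells. *Gata4*, a gene of testis somatic cells and primitive endoderm, had 111 CPM in the 6 *Dazl*-low *L1td1*-high cells of replicate 3 and 0 in the other sums of that state. *Tbx3*, a T-box gene of naive pluripotency, was also highest in those 6 cells, at 388 CPM against 42.9 to 118 CPM in the other sums. *Id2*, an inhibitor of basic helix-loop-helix factors, had 22.6 and 52.4 CPM on day 14 and 0 to 2.95 CPM on days 12 and 16 in *Dazl*-low *L1td1*-high cells, with an adjusted p of 0.320 between day 14 and day 12 by edgeR. These genes were picked after their values were seen.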
